A study of Homo sapiens with 43 samples.

Results

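The regions described here are 5190 stretches of the human genome at which a peak was called in each of 14 eCLIP libraries that were made with a tag antibody and named for no RNA-binding protein (RBP). They were chosen by presence alone. All 829937 peaks of the 7 FLAG-only and 7 V5-only lists were pooled, and peaks that overlapped by at least 1 nt on the same strand were merged, without the mitochondrial genome. Of the 272335 merged regions, the 5190 (1.91%) with a peak from every list were kept, and neither the fold nor the p-value of a peak entered that choice. Presence in the 14 tag-only lists is therefore not a finding. The folds in those lists come from the same libraries and are given as descriptions, while the 11 RBP lists had no part in the choice.

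The study used eCLIP (enhanced crosslinking and immunoprecipitation) in HEK293T, a human embryonic kidney cell line, in wild-type cells and in cells with a tag added to an endogenous RBP gene. Ultraviolet light joins proteins to the RNA they touch, the RNA is trimmed with RNase I, the complexes are pulled down with an antibody and run on a protein gel, and RNA is recovered from a slice of the membrane. FLAG and V5 are short peptides that serve as handles for well-characterised antibodies. The 43 samples comprised 25 immunoprecipitation libraries and 18 inputs.

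All 25 libraries came from HEK293T cells grown alike and crosslinked with ultraviolet light. The FLAG-only and V5-only libraries were cut from 7 gel ranges, 25-100, 50-125, 75-150, 100-175, 125-200, 150-225 and 175-250 kDa, so neighbouring ranges share 50 kDa of gel. The labels do not say whether the cells of these libraries carried a tagged gene. In 5 RBP libraries, called wild type here, the antibody was raised against the protein itself: DGCR8, LIN28, RBFOX2, FMR1 or HNRNPC. In the 6 tagged RBP libraries the antibody was against FLAG (FMR1 and DGCR8) or against V5 (LIN28, RBFOX2 and, as separate libraries, isoform 1 and isoform 2 of HNRNPC). Whether a tagged line was 1 clone is not stated in the labels. No RBP library was repeated, so values for an RBP carry no replicate error. The 7 inputs of the gel ranges carry no antibody name, so the FLAG-only and V5-only libraries of 1 range appear to have been set against the same input, and their folds are not independent.

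An eCLIP peak list names places where reads pile up in the immunoprecipitated library. A peak's fold over its size-matched input, the RNA cut from the same part of the gel without immunoprecipitation, tells whether the antibody concentrated that RNA or merely failed to remove it. A place that is called in many unrelated libraries is usually treated as background of the method, and abundant RNAs are a well-known source of such places. HNRNPC coats uridine-rich stretches of nascent nuclear transcripts, FMR1 is a translational regulator that lies along messenger RNAs, and RBFOX2 regulates splicing. LIN28 recognises precursors of the let-7 microRNAs and many messenger RNAs, and DGCR8 works with the nuclease DROSHA to cut primary microRNA transcripts.

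Each list gave between 25590 and 100679 peaks outside the mitochondrial genome, and the tag-only lists between 47978 and 71364. The folds and p-values are the authors' own value for each peak, with no count of reads, so depth in reads is unknown. Positions are in hg19, 1-based. Gene annotation and genome sequence were not used here, so the regions are named by position and strand only.

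The regions were compact, long for merged peaks, and built from many of them. Their median width was 133 nt (quartiles 93 and 181, range 12 to 708), against 33 nt over all merged regions. They held 122720 peaks, 14.8% of those pooled, with a median of 21 peaks per region and at most 277. In 597 regions (11.5%) each list contributed exactly 1 peak.

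The number of merged regions fell with the number of lists down to 11 lists and rose again at the end of the scale. There were 153675 regions with a peak in 1 list, 2739 in 11, 2742 in 12, 2800 in 13 and 5190 in 14. Regions in all 14 lists were thus the largest class above 7 lists, which held 5363. Width rose along the same scale, from a median of 24 nt for 1 list to 47 for 2 to 6 lists, 94 for 7 to 12 and 121 for 13. Wider regions have more room for a peak of any list, and the part of width in the number of lists was not tested.

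**Figure D1:**
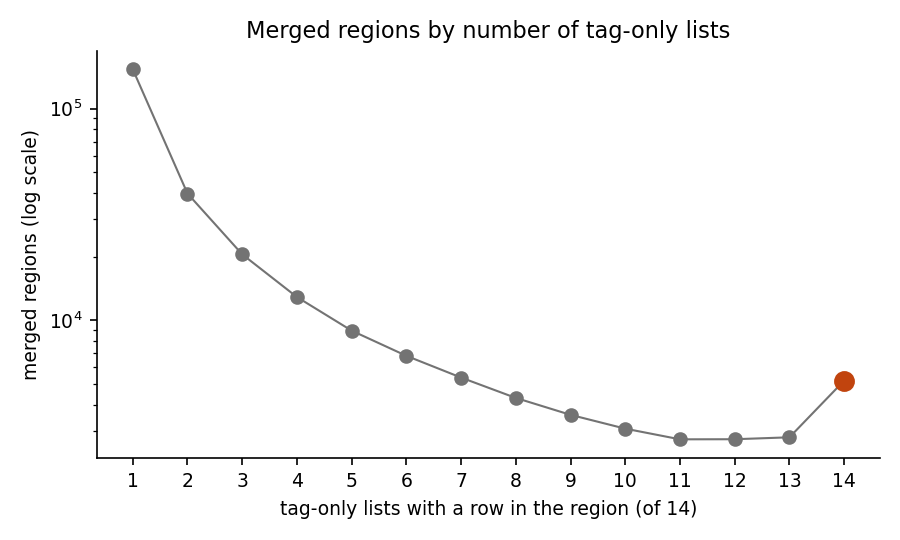
Number of merged regions (vertical axis, log scale) against the number of tag-only lists with a peak in the region (horizontal axis, 1 to 14). The count falls from 153675 at 1 list to 2739 at 11 and rises to 5190 at 14, the coloured point, which marks the regions described here.

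Merging chains peaks, so a region may hold peaks of all lists without a base common to them. In 3531 regions (68%) at least 1 base lay under peaks of all 14 lists, with a median of 30 such bases. The other 1659 had none. Of these, 852 reached 13 lists on 1 base and 807 reached 12 or fewer, and the fewest was 5.

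Regions just outside the rule most often lacked a V5-only list. Of the 2800 regions with peaks of 13 lists, 655 (23.4%) lacked V5-only 175-250 kDa and 392 (14%) lacked V5-only 75-150 kDa. Each of the other 12 lists was the missing one in 80 to 199 regions. V5-only 175-250 kDa was also the shortest tag-only list, with 47978 peaks. The median fold over libraries of a region was 1.83 on the log2 scale (quartiles 1.48 and 2.20) with 13 lists and 1.94 (1.56 and 2.27) with 14.

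The regions lay on both strands and on every chromosome except the mitochondrial one, with 2662 on the plus and 2528 on the minus strand. Chromosome 1 held the most, 604 (11.6%, against 10.2% of all merged regions), followed by chromosome 17 with 394 and chromosome 2 with 352, while Y held 1. Chromosome 16 had 3.76% of these regions and 5.46% of all merged regions, and chromosome X had 4.43% and 3.03%. Only 1 pair overlapped on opposite strands.

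Most of the regions had a neighbour along the same strand. With a gap of at most 10 kb, 3869 regions (74.5%) had at least 1 neighbour, and 1367 of 5143 gaps (26.6%) were under 1000 nt. These shares were not taken over all merged regions, so grouping is not read as a trait of these regions in particular. The 5190 regions formed 2299 runs, of which 1321 were single regions and 53 held 10 or more, 701 regions in all. The positions are therefore far fewer independent places than 5190, and regions of 1 run may share 1 transcript.

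The longest runs were of different kinds. The largest held 33 regions on the plus strand between chr14:56078805-56142637. Their median log2 fold over the 14 libraries ran from 1.48 to 3.16. All 33 were called in both FMR1 lists and none in an HNRNPC list. A run of 20 regions at chr6:56351902-56401739 (-) was alike, with medians from 2.02 to 3.15, all 20 in both FMR1 lists and none in an HNRNPC list. Of all 5190 regions, FMR1 FLAG called 91%, FMR1 wild type 82.5% and the HNRNPC lists 12% to 12.9%. Both runs were thus close to the whole set in these calls.

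Peaks of the HNRNPC lists were found in runs of low and of high fold. The 23 regions at chrX:73040817-73072138 (-) had medians from -0.96 to 1.46, and 16, 16 and 17 of them were called in HNRNPC wild type, V5 isoform 1 and V5 isoform 2. At chr11:65267506-65273517 (+), 16 regions within 6012 nt had medians from -0.89 to 0.39, and 14 of them were called in each HNRNPC list. A neighbouring run of 18 regions at chr11:65190601-65212970 (+) lay between, with medians from -0.40 to 1.08 and 9, 10 and 8 regions in the HNRNPC lists. Among runs of higher fold, 18 regions at chr1:245017629-245027789 (-) had medians from 1.56 to 2.98 and 5, 6 and 6 regions in the HNRNPC lists. At chr2:232319905-232329198 (-), 14 regions had medians from 0.15 to 3.74, and 8 of them were in each HNRNPC list. Presence in every tag-only list was thus reached at high and at low fold over input.

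Enrichment over input was modest in most of the regions. For each library, a region took the authors' log2 fold of the peak with most bases in it. In FLAG-only libraries the median log2 fold over regions was 1.72 at 25-100 kDa, 2.01 at 50-125, 2.07 at 75-150, 1.99 at 100-175, 2.93 at 125-200, 2.40 at 150-225 and 1.93 at 175-250 kDa. In V5-only libraries it was 1.36, 1.57, 1.63, 1.60, 2.53, 1.83 and 1.61 in the same order. The 125-200 kDa range was highest with both antibodies. The mean over the 7 ranges was 2.15 ± 0.40 (SD, n = 7 ranges) for FLAG-only and 1.73 ± 0.38 (SD, n = 7 ranges) for V5-only, a spread over gel ranges and not over repeats of a range.

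Within their own lists these folds were ordinary. The median region stood between the 42.9th percentile of all peaks of its list, in V5-only 75-150 kDa, and the 64.6th, in V5-only 125-200 kDa. In FLAG-only 125-200 kDa the median fold of the regions was 2.93 against 2.89 for all peaks of the list, and in FLAG-only 75-150 kDa both were 2.07. Certainty differed more than size. In V5-only 25-100 kDa the peak with most bases had a −log10 p of at least 3 in 23.3% of the regions, where 4.3% of all peaks of the list reached that value. In FLAG-only 125-200 kDa it was 78.7% against 33.1%. The peaks taken for the regions thus stood apart from their lists more in p-value than in fold. They were chosen for length, with median widths of 53 to 68 nt by library, against 31 to 36 nt over all peaks. The part of length in the p-values was not tested, so nothing is read from that gap.

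**Figure D2:**
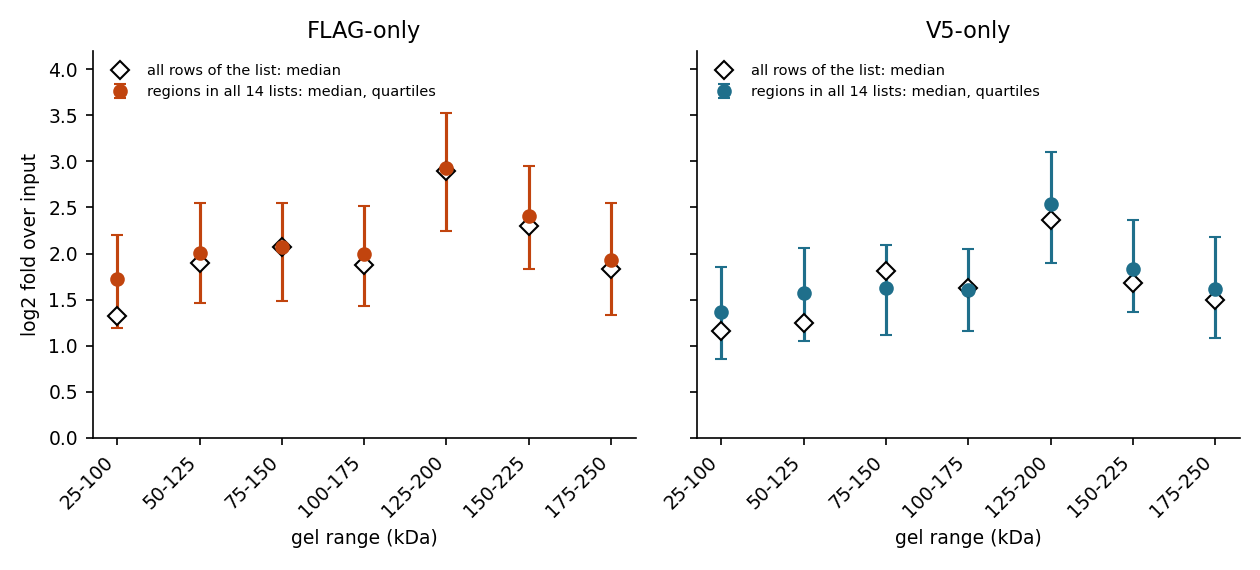
Median log2 fold over input of the 5190 regions (points, with bars from the lower to the upper quartile) and of all peaks of the list (open diamonds) for the FLAG-only (left) and V5-only (right) libraries by gel range in kDa. The points run from 1.36 to 2.93, peak at 125-200 kDa with both antibodies, and lie close to the diamonds.

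A stricter reading counts a region as enriched in a library when the −log10 p and the log2 fold of a peak in it both reached 3, the latter being 8-fold over input. In FLAG-only libraries this held for 274 regions (5.28%) at 25-100 kDa, where 1.29% of all merged regions with a peak in that list passed. The counts were 658 (12.7%, background 3.97%) at 50-125, 659 (12.7%, background 7.21%) at 75-150 and 722 (13.9%, background 6.74%) at 100-175 kDa. They were 2621 (50.5%, background 21.6%) at 125-200, 1421 (27.4%, background 11.6%) at 150-225 and 871 (16.8%, background 6.71%) at 175-250 kDa. The 125-200 kDa library enriched the most regions and the 25-100 kDa library the fewest.

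V5-only libraries gave fewer enriched regions at every range. There were 124 (2.39%, background 0.595%) at 25-100, 254 (4.89%, background 1.16%) at 50-125, 233 (4.49%, background 2.85%) at 75-150 and 211 (4.07%, background 2.08%) at 100-175 kDa. There were 1836 (35.4%, background 11.4%) at 125-200, 514 (9.9%, background 3.21%) at 150-225 and 312 (6.01%, background 1.9%) at 175-250 kDa. The share exceeded the background in all 14 libraries, but a region with several peaks has several chances to pass, and these libraries chose the regions, so nothing is read from the excess. Counting error alone gives 95% Wilson intervals of at most 1.36 percentage points to either side, and neighbouring regions are not independent.

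Being called everywhere rarely meant being enriched everywhere. No library enriched 1602 regions (30.9%). A single library enriched 918, and for 423 of these it was FLAG-only 125-200 kDa and for 119 V5-only 125-200 kDa. A further 912 regions were enriched in 2 libraries and 1525 in 3 to 6. Only 233 were enriched in 7 or more, 39 in 10 or more and 3 in all 14.

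The 3 regions enriched in all 14 libraries were chr1:237766446-237766534 (+), chr2:230045573-230045740 (-) and chr1:91853042-91853160 (-). At the first, the FLAG-only log2 folds were 4.21, 5.04 and 6.70 (lowest, median and highest of 7) and the V5-only folds 4.30, 5.33 and 6.69, the highest floor of all regions. The antibodies overlapped fully there, and a peak was also called in 9 RBP lists. It was enriched in DGCR8 FLAG with a log2 fold of 6.13, in DGCR8 wild type with 3.91 and in FMR1 wild type with 3.55. This place was thus strongly enriched with antibodies against a tag and against 2 different proteins.

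The other two regions enriched everywhere had a peak in every RBP list as well. At chr2:230045573-230045740 (-) the FLAG-only folds were 3.70, 4.71 and 6.13 and the V5-only folds 3.64, 4.15 and 6.56, with the highest value of both at 125-200 kDa. Among RBP lists its fold was 3.33 in DGCR8 wild type, the one that passed, and -3.89 in HNRNPC V5 isoform 2. At chr1:91853042-91853160 (-) the FLAG-only folds were 3.20, 3.37 and 4.38 and the V5-only folds 2.44, 3.88 and 4.87. A library counts as enriched there through another peak of the region where the longest one is below 3, as in V5-only 50-125 kDa with 2.44.

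High folds in the tag-only libraries did not need a counterpart in any RBP list. At chr19:24187265-24187308 (-), 44 nt wide, the FLAG-only folds were 3.63, 5.38 and 5.74 and the V5-only folds 4.50, 5.03 and 5.82. It was enriched in 13 libraries, and FLAG-only 150-225 kDa, at 3.63, missed through its p-value. No peak of any of the 11 RBP lists touched it. It is the one region that ranks among both the 10 with the highest floor and the 5 least often called in RBP lists.

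The remaining regions of the 10 with the highest floor were enriched in 7 to 13 libraries. At chr9:100777646-100777779 (+) the folds were 3.22, 3.57 and 4.21 with FLAG-only and 2.98, 3.64 and 4.88 with V5-only. At chr2:232324872-232325004 (-) they were 2.99, 4.0 and 5.21, and 2.76, 3.48 and 4.05. Both antibodies gave overlapping values at these places. At chr3:49940107-49940132 (-), only 26 nt wide, they were 2.63, 3.95 and 5.52 with FLAG-only and 2.82, 4.43 and 5.67 with V5-only. At chr11:65835415-65835517 (+) they were 2.39, 3.12 and 4.09, and 2.43, 2.88 and 3.98, so it was enriched in 7 libraries.

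Most of these 10 were also enriched in at least 1 RBP library. Such enrichment was found for 27.4% of all regions described here and for 7.01% of all merged regions. The 10 were ranked on their tag-only folds, so their higher share is a description without a test. Besides the RBP libraries given above, FMR1 wild type, FMR1 FLAG and DGCR8 FLAG enriched chr1:91853042-91853160 (-). FMR1 FLAG and LIN28 V5 enriched chr9:100777646-100777779 (+), and FMR1 FLAG enriched chr11:65835415-65835517 (+). The following places had the highest LIN28 and FMR1 folds among these 10. At chr10:79800372-79800450 (+), enriched in 11 tag-only libraries, the FLAG-only folds were 3.03, 3.67 and 4.93 and the V5-only folds 2.73, 3.09 and 4.04, while LIN28 V5 gave 7.67 and LIN28 wild type 3.77. At chr14:56103913-56104083 (+), which lies in the run of 33 regions, the FLAG-only folds were 2.89, 3.35 and 4.13 and the V5-only folds 2.53, 2.74 and 3.81. FMR1 gave 4.84 there in wild type and 4.29 with FLAG. Folds of different lists stand against different inputs and depths, so the values are set side by side and not compared.

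**Figure D3:**
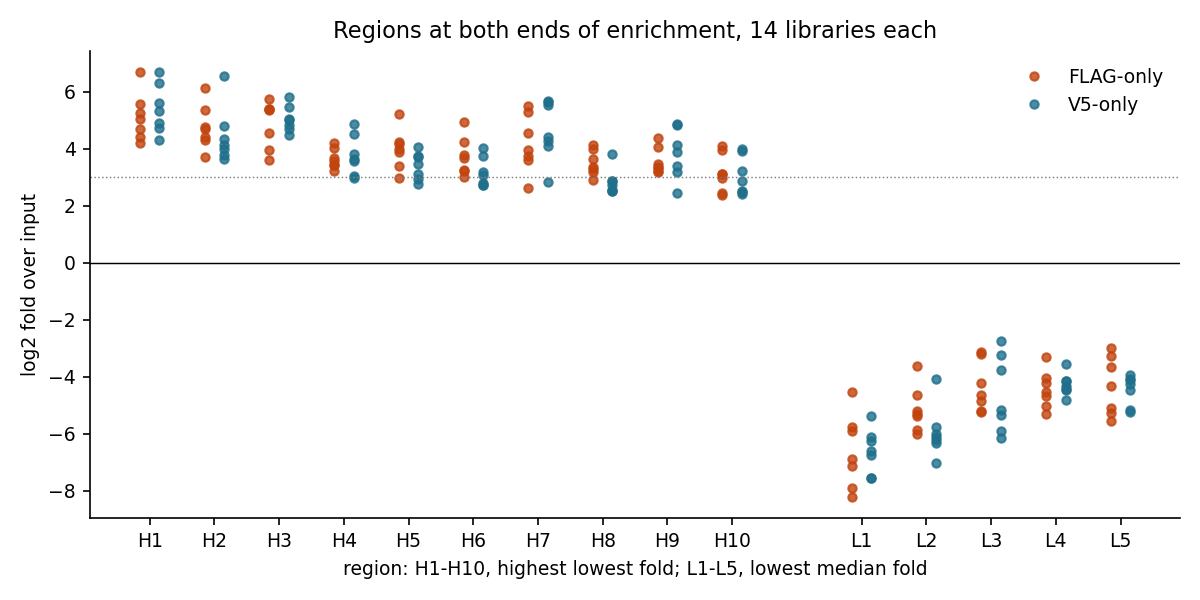
Log2 fold over input in each of the 7 FLAG-only and 7 V5-only libraries (1 point per library) for the 10 regions with the highest lowest fold (H1 to H10) and the 5 with the lowest median fold (L1 to L5), with a dotted line at 3. All 14 points of H1, H2 and H3 lie above 3, and all points of L1 to L5 lie below -2.

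At the opposite end, some regions were called in every list although the immunoprecipitation had less of them than the input. Per library, between 95 (1.83%, V5-only 125-200 kDa) and 324 (6.24%, V5-only 25-100 kDa) of the regions had a fold below 0. Of all peaks of those lists 1.26% and 10.1% were below 0, so the regions lay above their list's share in one and under it in the other. In 55 regions the fold was below 0 in every tag-only library, with medians from -6.69 to -0.62. A peak in these lists thus need not lie above its input.

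The lowest was chr14:50053516-50053580 (+), with FLAG-only log2 folds of -8.21, -6.88 and -4.53 and V5-only folds of -7.57, -6.63 and -5.38. At chr6:4428233-4428312 (+) they were -6.02, -5.31 and -3.61, and -7.04, -6.12 and -4.08. At chr15:65588431-65588505 (+) they were -5.25, -4.65 and -3.13, and -6.15, -5.16 and -2.74. These 3 regions were depleted with both antibodies at all 7 ranges, and each had a peak in all 11 RBP lists with a fold below 0 in each.

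The next lowest were much the same. At chr1:235291118-235291252 (-) the FLAG-only folds were -5.31, -4.53 and -3.32 and the V5-only folds -4.83, -4.33 and -3.56, with all 11 RBP lists below 0. At chr12:120729591-120729633 (-) they were -5.55, -4.34 and -3.01, and -5.23, -4.27 and -3.93. That region had no peak in the FMR1 lists and 9 RBP peaks below 0, from -7.94 in the HNRNPC V5 libraries to -2.99 in LIN28 V5.

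The RBP lists, each with an input of its own, gave the 55 depleted regions low folds too. Of the 55, 30 had a peak in all 11 RBP lists, against 268 (5.16%) of all 5190 regions. DGCR8 wild type called all 55, each below 0, with a median log2 fold of -2.06. LIN28 wild type called all 55, 54 of them below 0 (median -1.97). FMR1 wild type and FMR1 FLAG called 54 each, every one below 0 (medians -2.73 and -3.07). RBFOX2 had 53 in wild type and 54 with V5, every one below 0, with medians of -4.59 and -3.94. Of all 5190 regions these lists called between 39.6% (RBFOX2 wild type) and 91% (FMR1 FLAG). Of the regions each list called, between 12.1% (FMR1 FLAG) and 58% (RBFOX2 wild type) were below 0.

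HNRNPC called fewer of the depleted regions than the other RBP lists did and gave them the lowest folds. Its lists called only 12% to 12.9% of all 5190 regions, so it called the depleted ones more often than the rest. In wild type it called 42, 41 of them below 0, with a median of -6.55. In V5 isoform 1 it called 34, of which 33 were below 0 (median -7.28), and in V5 isoform 2 it called 43, of which 42 were below 0 (median -7.05). Depletion of these places was therefore shared by antibodies against both tags and all 5 proteins. What RNA they hold was not tested.

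FLAG-only folds were a little higher than V5-only folds at most regions. The median FLAG-only fold minus the median V5-only fold was 0.40 over regions (quartiles 0.09 and 0.67), and 5% of regions were below -0.41 and 5% above 1.07. The FLAG-only median was the higher one in 4210 regions (81.1%). Paired within a gel range, the median difference over regions was 0.35 at 25-100, 0.41 at 50-125, 0.40 at 75-150, 0.37 at 100-175, 0.37 at 125-200, 0.51 at 150-225 and 0.29 at 175-250 kDa. The sign was the same at all 7 ranges. Over all peaks of the lists the FLAG-only median was also the higher one at all 7 ranges. The gap there was narrowest at 25-100 kDa (1.33 against 1.16) and widest at 50-125 kDa (1.89 against 1.25). The higher FLAG-only fold was thus not particular to these regions. Whether it came from the antibody or from the depth of the libraries cannot be told apart.

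A few regions had high folds in the tag-only libraries of 1 antibody only. These were ranked on this difference, so the gap itself is a description. At chr1:246948940-246949039 (+) the FLAG-only log2 folds were 4.04, 4.96 and 6.60 and the V5-only folds -0.66, -0.35 and 0.66, a difference between medians of 5.31. All 7 FLAG-only libraries were enriched there and no V5-only library was, and the antibodies did not overlap. In the RBP libraries, which did not enter the ranking, the fold was -1.46 in FMR1 FLAG and 0.30 in DGCR8 FLAG. The high fold of the FLAG-only libraries was thus not present in either library made with a FLAG antibody from cells with a tagged RBP.

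The reverse was seen at chrX:70767456-70767626 (+), with FLAG-only folds of -0.71, -0.29 and 0.30 and V5-only folds of 2.51, 2.98 and 3.77. All 7 V5-only libraries were enriched and no FLAG-only library was. The V5 libraries of RBPs gave 0.38 for RBFOX2 and -0.33 for LIN28, and no peak for HNRNPC. Here too the tagged libraries with the same antibody showed no such fold.

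A weaker V5-only gain was found at chrX:73072013-73072138 (-), the end of the run of 23 regions. The FLAG-only folds were -0.76, -0.58 and -0.02 and the V5-only folds 1.62, 2.08 and 2.70, without overlap. None of these values reached 3. The HNRNPC folds there were 1.62 in wild type, 1.32 in V5 isoform 1 and 1.51 in V5 isoform 2.

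The other regions of the antibody ranking overlapped between antibodies over the 7 ranges, yet differed with 1 sign within each range. At chr19:45981855-45981935 (-) the FLAG-only folds were -1.69, 3.03 and 3.46 and the V5-only folds -3.38, 0.19 and 2.63. At chr2:55545968-55546143 (-) they were 1.09, 3.48 and 4.27, and 0.90, 1.51 and 3.78. At chr2:234184372-234184646 (+) they were -1.44, -0.64 and 1.00, and 0.34, 1.14 and 2.49. Within a range, FLAG-only exceeded V5-only by 0.83 to 3.06 at the first and by 0.15 to 2.40 at the second, and FLAG-only minus V5-only ran from -3.94 to -0.25 at the third. These regions were ranked on this difference, so its sign is a description.

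Folds of a region differed between gel ranges and between antibodies. The range over the 7 FLAG-only folds of a region had a median of 1.94 on the log2 scale (quartiles 1.51 and 2.48), and over the 7 V5-only folds 1.93 (1.47 and 2.49). The antibody medians of a region were 0.44 apart at the median (0.22 and 0.70). A range over 7 values is wider by construction than a difference of 2 medians, and each gel range has its own input. The spread over gel ranges is therefore not compared with the gap between antibodies. The gel contrast was examined after values had been seen, by ranking regions on the mean fold at 175-250 kDa minus that at 25-100 kDa.

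At chr15:96826148-96826169 (-), 22 nt wide, FLAG-only gave -2.84 at 25-100, 0.73 at 50-125, 1.26 at 75-150, 7.21 at 100-175, 3.45 at 125-200, 4.0 at 150-225 and 6.93 at 175-250 kDa. V5-only gave -2.49, 1.60, 3.06, 5.10, 3.37, 3.37 and 4.59 in the same order. Both antibodies had it depleted in the lowest range and enriched in the 4 highest. At chr1:173834774-173834821 (-), FLAG-only rose from -0.37 at 25-100 kDa to 2.85 at 125-200, fell back to 1.20 at 150-225 and stood at 5.37 at 175-250 kDa, and V5-only gave 0.13, 3.10, 1.02 and 4.08 at those ranges. Both antibodies of a range appear to share an input, and the part of the input in these profiles was not tested.

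The opposite profile was shallower. At chr19:11558503-11558604 (+), FLAG-only gave 4.13 at 25-100 kDa and 0.63 at 175-250 kDa, and V5-only 3.09 and -0.02. At chr1:150939227-150939285 (-), FLAG-only gave 3.55 and 0.45 and V5-only 3.09 and -0.28 at the same ranges. Each was enriched with both antibodies at 25-100 kDa and in no other library.

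**Figure D4:**
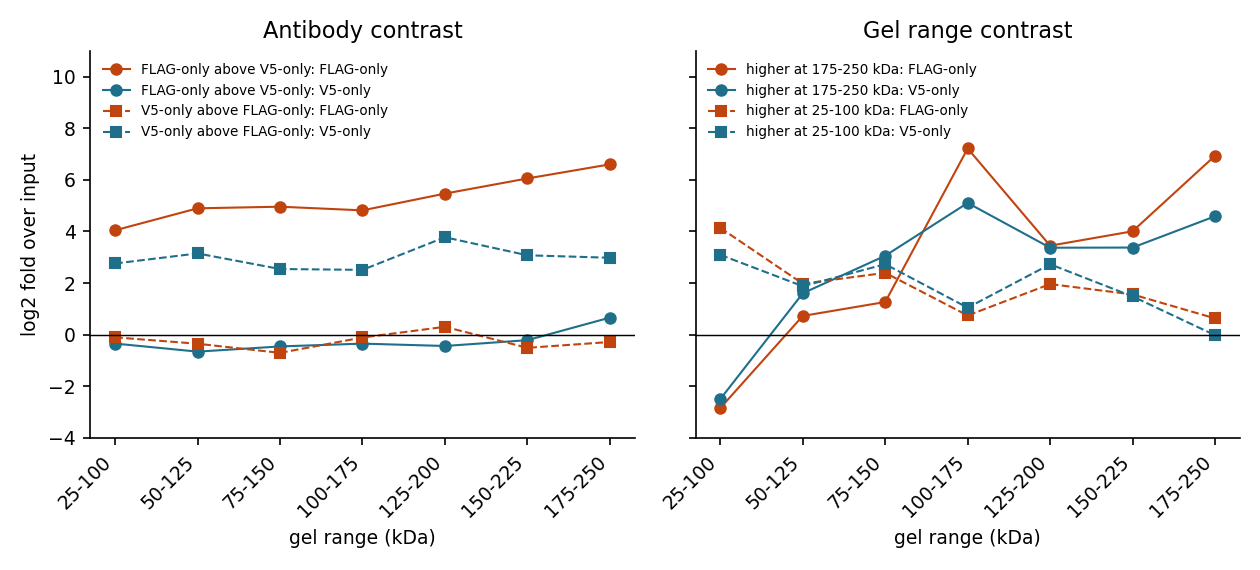
Log2 fold over input by gel range (kDa) at 4 regions, 1 point per library. Left, chr1:246948940-246949039 (circles) is high in FLAG-only and near 0 in V5-only, and chrX:70767456-70767626 (squares) is the reverse. Right, chr15:96826148-96826169 (circles) runs from below -2 at 25-100 kDa to above 4 at 175-250 kDa with both antibodies, and chr19:11558503-11558604 (squares) falls.

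The 3 widest regions had moderate median folds. At chrX:102931267-102931974 (-), 708 nt wide with 81 peaks, 337 bases lay under all 14 lists. The FLAG-only folds were 1.77, 2.35 and 2.89 and the V5-only folds 1.35, 2.04 and 3.36. At chr1:171526452-171527158 (+), 707 nt wide, no base lay under all lists, and the folds were 1.48, 2.20 and 3.59, and 1.01, 1.67 and 2.16. At chr6:163835674-163836376 (+), 703 nt wide, they were 2.03, 2.21 and 3.38, and 1.21, 1.94 and 3.25. Each of the 3 was called in FMR1, LIN28 wild type, RBFOX2 V5 and DGCR8 lists and in no HNRNPC list.

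The RBP lists, which had no part in choosing the regions, called them unevenly. FMR1 FLAG had a peak in 4725 regions (91%, against 23.5% of all merged tag-only regions) and FMR1 wild type in 4280 (82.5%, background 14.8%). LIN28 V5 called 3570 (68.8%, background 15.1%) and LIN28 wild type 3224 (62.1%, background 9.34%). Each of these 4 lists called most of the regions. FMR1 FLAG and LIN28 V5 were also the longest RBP lists, with 100679 and 73034 peaks.

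DGCR8 and RBFOX2 were intermediate. DGCR8 wild type called 2959 regions (57%, background 7.05%) and DGCR8 FLAG 2298 (44.3%, background 4.96%). RBFOX2 V5 called 2745 (52.9%, background 9.11%) and RBFOX2 wild type 2056 (39.6%, background 6.03%). The DGCR8 lists were the shortest of all, with 32885 and 25590 peaks, and a shorter list has fewer chances to call any region.

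HNRNPC was lowest. Its V5 lists held 49175 peaks for isoform 1 and 59194 for isoform 2. The part of list length in the shares of the 11 lists was not tested. HNRNPC wild type, with 62880 peaks, called 624 regions (12%, background 6.74%), V5 isoform 1 called 671 (12.9%, background 5.27%) and V5 isoform 2 also 671 (12.9%, background 6.22%). Counting error alone gives Wilson half-widths of at most 1.36 percentage points over the 11 lists. Neighbouring regions are not independent and no RBP library was repeated, so these widths hold no replicate error. These regions are wider than most merged ones, so shares at like width are given as well.

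Among regions of 100 to 200 nt, a restriction chosen after the values were seen, the share called in an RBP list rose with the number of tag-only lists in the 4 RBP lists given here. FMR1 FLAG called 65.8% of such regions with 7 to 12 lists, 82.7% with 13 and 91.2% with 14. For LIN28 wild type the shares were 31.1%, 47% and 62.1%, and for DGCR8 FLAG 14.7%, 23.8% and 43.2%. For HNRNPC wild type they were 3.17%, 5.08% and 9.79%. Without the restriction, HNRNPC wild type did not rise steadily: it called 8.93% of regions with 2 to 6 lists, 6.66% with 7 to 12, 5.68% with 13 and 12% with 14.

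**Figure D5:**
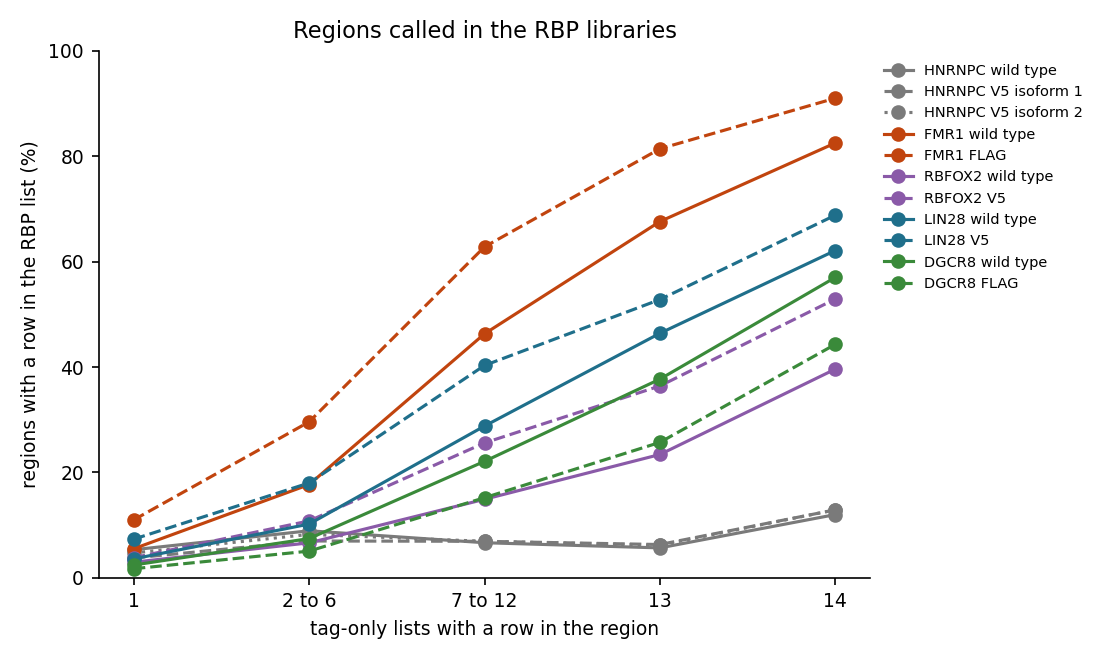
Share of merged regions with a peak in each of the 11 RBP lists (percent, vertical axis) by the number of tag-only lists with a peak in the region (horizontal axis). Solid lines are wild-type libraries and broken lines tagged ones. At 14 lists FMR1 FLAG reaches 91% and the 3 HNRNPC lists 12% to 12.9%.

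Calls in RBP lists were seldom enriched there. Of the called regions, FMR1 FLAG enriched 966 (20.4%, background 19% of called merged regions) and FMR1 wild type 258 (6.03%, background 5.9%). LIN28 V5 enriched 471 (13.2%, background 10.3%) and LIN28 wild type 120 (3.72%, background 4.56%). For FMR1 these shares were near the background. The regions were thus called more often by FMR1 and, once called, were enriched about as often as other merged regions.

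For the remaining RBPs the shares lay below the background. RBFOX2 wild type enriched 12 regions (0.584%, background 5.04%) and RBFOX2 V5 17 (0.619%, background 1.85%). DGCR8 enriched 15 in wild type (0.507%, background 2.68%) and 15 with FLAG (0.653%, background 1.59%). HNRNPC wild type enriched 2 (0.321%, background 3.68%), V5 isoform 1 none of 671 (background 0.975%) and V5 isoform 2 a single one (0.149%, background 2.09%). In each of these 7 libraries at most 17 of the regions passed.

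The folds of called regions are given within each list, whose inputs and depths differ. The median log2 fold was 1.63 in FMR1 FLAG, 1.35 in LIN28 V5, 1.08 in FMR1 wild type and 1.00 in LIN28 wild type. It was 0.84 in DGCR8 wild type, 0.83 in DGCR8 FLAG, 0.30 in RBFOX2 V5 and -0.14 in RBFOX2 wild type. In HNRNPC it was -1.79 in wild type, -1.82 in V5 isoform 1 and -1.79 in V5 isoform 2. HNRNPC folds of these regions stood near the bottom of their lists, at a median percentile of 0.931, 1.68 and 1.29, and 80.1%, 86.9% and 89.4% of them were below 0, against 10.6%, 14.9% and 11.1% of all peaks of those lists. In the remaining lists the median percentile ran from 8.41 in RBFOX2 wild type to 41.2 in LIN28 V5.

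A region had a peak in a median of 5 of the 11 RBP lists (quartiles 3 and 7). In 268 regions (5.16%, against 0.142% of all merged regions) every RBP list had a peak, so they were called in all 25 libraries of the series. At the other end 72 (1.39%, against 52.1%) had none. The 268 had a median log2 fold over the tag-only libraries of 0.98 (quartiles -0.20 and 1.81) and the 72 had 2.03 (1.66 and 2.38). The regions called throughout the series therefore had the lower folds, at like median widths of 113 and 105.5 nt.

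Regions in the HNRNPC lists had lower tag-only folds at the median. The 352 regions called in all 3 HNRNPC lists had a median log2 fold over the tag-only libraries of 1.25 (quartiles 0.10 and 1.82), and the 4169 called in no HNRNPC list had 2.00. All 8 lists of the other RBPs called 919 regions, of which 362 had no HNRNPC peak. Among the 50 regions whose log2 fold was at least 2 in every tag-only library, 12 (24%) had a peak in any HNRNPC list, against 1021 (19.7%) of all 5190, and 45 (90%) had one in FMR1 FLAG, against 91%. The regions of highest floor were thus in the HNRNPC lists about as often as the rest. These groups were formed on measured values, so the differences are descriptions without a test.

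Regions without any RBP peak could be enriched in tag-only libraries. Besides the region on chromosome 19, chr1:186314717-186314828 (-) had FLAG-only folds of 2.43, 3.95 and 5.31 and V5-only folds of 1.83, 2.78 and 4.03. At chr5:177483004-177483096 (+) they were 2.89, 3.46 and 4.30, and 2.12, 2.82 and 3.76. At chr10:118689358-118689515 (-) they were 2.24, 3.53 and 3.89, and 1.97, 2.51 and 4.78. At chrX:11780952-11781117 (+) they were 0.73, 2.89 and 3.30, and 0.40, 2.57 and 3.37. These were taken from the 72 for the highest median fold, so their level is set by the ranking. Those on chromosomes 1, 5, 10 and X were enriched in 8, 4, 8 and 4 of the 14 tag-only libraries. Those on chromosomes 10 and X had no base under all 14 lists, and the median over the 72 was 0 such bases.

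Enrichment in at least 1 RBP library was found for 1422 regions, 27.4% of all 5190 against 7.01% of all merged regions. Among regions called in at least 1 RBP list the shares were 27.8% and 14.6%. A region in more lists, and a wider one, has more chances to pass. At least 3 RBP libraries enriched 57 regions (1.1%, against 0.142%). The most was 8, at chr6:31958261-31958282 (+), 22 nt wide. There the FLAG-only folds were 2.65, 5.66 and 7.32 and the V5-only folds 0.71, 4.48 and 5.74. DGCR8 FLAG gave 7.03, FMR1 wild type and FMR1 FLAG 5.83 each, and RBFOX2 V5 5.55. LIN28 V5 gave 5.46, LIN28 wild type 4.93, RBFOX2 wild type 4.56 and DGCR8 wild type 3.91, while the 3 HNRNPC libraries lay between 2.19 and 2.43. Every RBP list had this place above its input.

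The region of equal width at chr15:96826148-96826169 (-) was enriched in 6 RBP libraries, among them RBFOX2 wild type at 5.87 and DGCR8 FLAG at 5.26, and had a peak in all 11 lists. At chr17:4575286-4575531 (-), enriched in 4, FMR1 wild type gave 3.93, LIN28 V5 3.72, FMR1 FLAG 3.07 and DGCR8 wild type 3.03. Its FLAG-only folds were 2.69, 2.93 and 3.77 and its V5-only folds 1.71, 3.35 and 4.65. Here 4 libraries of 3 proteins passed with folds like those of the tag-only libraries.

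The last of these regions were shared by FMR1 and LIN28. At chr12:6692364-6692543 (-), FMR1 gave 4.80 in wild type and 4.89 with FLAG, and LIN28 2.91 and 3.58 in the wild-type and V5 libraries. The FLAG-only folds were 2.06, 2.49 and 3.69 and the V5-only folds 1.38, 1.93 and 3.66. At chr3:184042666-184042903 (+), LIN28 gave 7.92 with V5 and 5.95 in wild type, and FMR1 FLAG 3.72. The FLAG-only folds there were 1.89, 2.68 and 3.57 and the V5-only folds 1.45, 1.99 and 3.01. FMR1 wild type gave 2.34 and passed through another peak of the region, so all 4 libraries of these proteins were enriched there, as were 3 tag-only libraries.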

How the data were processed

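Peak lists of 25 eCLIP immunoprecipitation libraries were used, 1 per library. No peak lists of the 18 inputs were available here, and the inputs enter only through the authors' folds and p-values. Each list gives chromosome, start, end, −log10 p, log2 fold over input and strand. The −log10 p of each peak and the log2 fold over size-matched input are the authors' deposited values. The build is hg19, and cutadapt, STAR, GATK, Picard and SAMtools were used, per the submitters' processing notes. The caller of the peaks is not given in the sources. Read totals were not used, so depth is unknown in reads, and peaks were called per library.

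Peaks outside the mitochondrial genome were merged on 1 strand at an overlap of at least 1 nt. A region took the fold of the peak with most bases in each tag-only list, and of the peak sharing most bases in each RBP list. It counted as enriched when the −log10 p and the log2 fold of any peak there both reached 3, thresholds common in eCLIP work that the labels do not give. With 1 library per antibody and range or RBP, no test was made. Named regions are the 10 with the highest lowest fold, the 5 with the lowest median, the 5 enriched in most and the 5 called in fewest RBP libraries, the 3 widest, and 3 in each direction between antibodies. Regions that differ by gel range were added after values were seen. The regions and lists were chosen with earlier results of these data known. Annotation and sequence were planned only for a reference of hg19 and were not used here. Merging and overlap were checked on simulated data. Python 3.11.15 with numpy 2.4.6, pandas 2.3.3, statsmodels 0.14.6 and matplotlib 3.10.9 was used.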

Additional observations from a re-analysis of the deposited data

Results flagged for a closer look

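In 9 of 84 sets of 7 values (the 7 gel ranges of 1 antibody), the highest or lowest library stood far from the rest by Dixon's criterion at 95%. Chance flags about 1 in 20 independent sets, but 72 of the 84 are named regions that were mostly ranked on these folds, and all sets share the same 14 libraries, so the number of sets found cannot be set against chance. The 7 values are gel ranges and not repeats of 1 condition.

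V5-only 125-200 kDa was the library in 5 of the 9. Its median log2 fold over the 5190 regions was 2.53, with 1.83 next, and it enriched 1836 regions, with 514 next. Single regions high in it were chr14:56103913-56104083 (+), with a log2 fold of 3.81 and 2.88 next, chr2:230045573-230045740 (-), with 6.56 and 4.82 next, and chrX:102931267-102931974 (-), with 3.36 and 2.18 next. Without this library the number of regions present in all remaining lists was 5356.

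The other 4 sets were single regions in other libraries. FLAG-only 150-225 kDa gave 3.77 at chr17:4575286-4575531 (-), with 3.13 next. FLAG-only 75-150 kDa gave 3.38 at chr6:163835674-163836376 (+), with 2.54 next. V5-only 175-250 kDa gave 0.66 at chr1:246948940-246949039 (+), with -0.22 next. V5-only 75-150 kDa gave -4.08 at chr6:4428233-4428312 (+), with -5.78 next, so the region was depleted there too.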

How the results depend on the processing

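The number of regions depended mainly on whether enrichment was asked for. With enriched peaks only, 3 regions had a peak in all 14 lists, against 5190. With peaks of a log2 fold above 0 there were 4615, with book-ended peaks merged 5199, with at least 10 nt to merge 4142, and stretches of bases under all 14 lists numbered 4343. Leaving out 1 library at a time gave 5249 to 5843 regions, the most without V5-only 175-250 kDa. The median number of enriched regions per FLAG-only library was 722, and 2593 when a log2 fold of 2 sufficed. The median per V5-only library was 254, with 167 for a −log10 p of 5 or more and 1421 when a log2 fold of 2 sufficed. The median share of regions called in an RBP list was 52.9%, and 50.7% for regions of 100 to 200 nt, an alternative added after seeing the data. The other counts and medians kept within 1.5 times or within the spread over libraries, and all 36 named regions kept the sign of their median log2 fold under both other ways of taking a region's fold. With the peak of highest fold, 2 of them moved by over 1.5 times, chrX:70767456-70767626 (+) from 1.41 to 2.13 and chr2:234184372-234184646 (+) from 0.42 to 1.13. With the antibodies paired by gel range, a replicate block added after seeing the data, the median FLAG-only minus V5-only difference was 0.40, as without the pairing. No result reversed.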
